A study of Mus musculus with 4 samples.

Results

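FGF response genes are genes that fibroblast growth factor (FGF) signaling switches on in receiving cells, many of which feed back on the pathway. Open chromatin was described at 8 of them, taken by name from 21938 protein-coding genes: the Sprouty genes Spry1, Spry2 and Spry4, the Sprouty-related genes Spred1 and Spred2, the phosphatase gene Dusp6 and the ETS factor genes Etv4 and Etv5. Every peak that overlapped the body of one of these genes or the 50 kb on either side (the window of the gene, mm10 coordinates with the GENCODE M21 annotation) was included. These windows held 35 of the 44692 regions obtained when overlapping peaks of all libraries were merged.

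The peaks came from ATAC-seq, in which the transposase Tn5 inserts sequencing adapters into accessible DNA, on the posterior part of forelimb buds from Swiss Webster mouse embryos at E10.5 (35 somites). The 4 libraries were 2 wild-type (WT rep1 and WT rep2) and 2 Shh-/- (Shh-/- rep1 and Shh-/- rep2), drawn in the plots as replicate 1 and replicate 2, each made from the limb buds of a single embryo with 5000 cells, 30 min of Tn5 and 18 PCR cycles. Shh-/- embryos carry a null allele of Sonic hedgehog in every cell from fertilization, so their limb buds had lacked the ligand from the start, and strain, stage, tissue and protocol were shared by both genotypes. The study asked whether GLI proteins, the transcription factors of the Hedgehog pathway, repress their targets through chromatin, with accessibility as one measure, and the genes described here respond to a neighbouring pathway.

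In the early limb bud, FGFs from the apical ectodermal ridge act on the mesenchyme beneath through receptor tyrosine kinases, the RAS GTPases and the ERK kinases. ERK signaling turns on ETS transcription factors, which carry the response to target genes, and also turns on inhibitors of the same cascade, which hold it in bounds. FGF signals from the ridge and SHH from the posterior mesenchyme sustain each other during limb outgrowth.

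The files were 1 list of called peaks per library, with 5589 to 39080 peaks. WT rep1 had the longest list and Shh-/- rep1 the shortest. A list holds no read counts, so the depth of each library could not be read from it, and a region without a peak was not called, which is not the same as closed. Each peak has a score, used here only to rank it within its own list. The rank is the number of peaks in that list with a score at least as high, and it is also given as a percent of the list, where a small percent means a high score. Among limb mesenchyme markers, 7 of 7 had a promoter peak in WT rep1, 3 in WT rep2, 2 in Shh-/- rep1 and 3 in Shh-/- rep2. Prrx1, a homeobox gene of limb mesenchyme, was called in all 4 libraries, whereas promoter peaks of Tbx5, Hand2 and Hoxd13, which mark forelimb, posterior and distal mesenchyme, were called in WT rep1 alone. Of 5 ridge and ectoderm markers, Sp8 and Dlx5 were called in WT rep1 alone and Fgf8, Trp63 and Krt5 in no library. Of 3 endothelial markers, Kdr was called in WT rep1 and Shh-/- rep2 and Cdh5 and Pecam1 nowhere, and of 3 muscle progenitor markers, Lbx1 was called in all libraries but Shh-/- rep1, Pax3 in WT rep1 and Shh-/- rep2 and Myf5 nowhere. Of the hindlimb markers, Pitx1 was called in WT rep1 and Tbx4 in WT rep1 and Shh-/- rep2, and the blood markers Gata1 and Ptprc were called in no library. No library had a peak in an exon of Shh, so the lists do not check the genotype. Since each library came from its own embryo, the spread within a genotype includes that between embryos.

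The promoters of the FGF response genes were nearly always called. A promoter was taken as 2 kb before to 1 kb after any transcription start site (TSS) of the gene. In WT rep1, 8 of 8 promoters had a peak, against 60.4% of all protein-coding genes. In WT rep2, 7 of 8 were called (all but Etv4), against 39.2%. In Shh-/- rep1, 7 of 8 were called (all but Spry1), against 17.3%, and in Shh-/- rep2, 8 of 8 against 51.3%. A peak in all 4 libraries was present at 6 of 8 promoters (Spry2, Spry4, Spred1, Spred2, Dusp6 and Etv5), against 16.1% of all genes. The members thus lay above the background in every list, and by the widest margin in the shortest one.

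**Figure D1:**
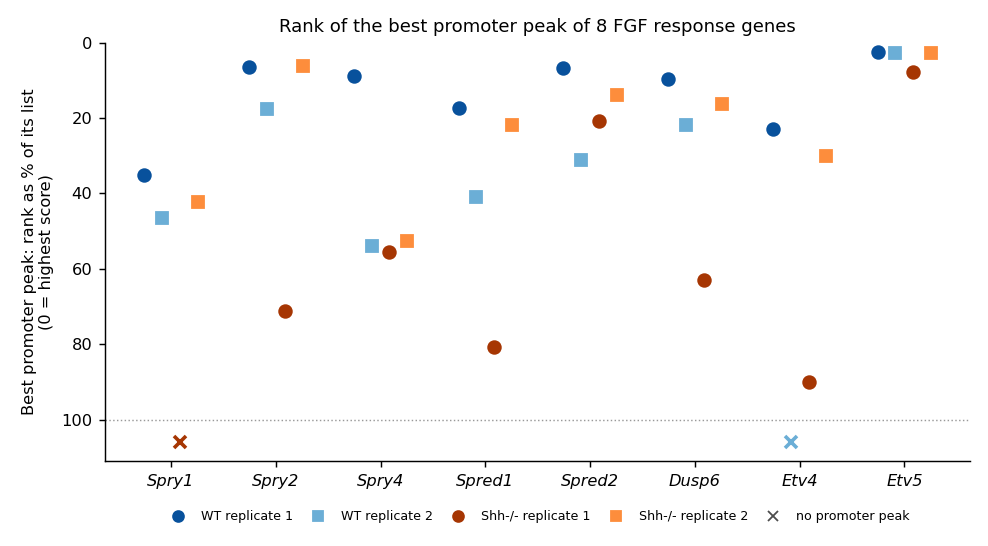
Rank of the best promoter peak of each gene as a percent of its own list (vertical axis, 0 at the top for the highest score), with 1 point per library and crosses for libraries without a promoter peak. The points of Etv5 lie at 2.37 to 7.87% in all 4 libraries, and the lowest rank of most genes is that of Shh-/- rep1.

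Their ranks spread widely. Over the called members, the median of the best promoter peak was at 9.14% of the list in WT rep1, 31.1% in WT rep2, 63.0% in Shh-/- rep1 and 19.1% in Shh-/- rep2. Over all genes with a promoter peak in the library, the median was 18.3, 35.4, 43.2 and 32.0%. The members were therefore placed higher than the typical called promoter in 3 lists and lower in Shh-/- rep1. Over the genes called in all 4 libraries, the medians were 4.52, 15.7, 38.2 and 10.1%, better placed than the members in each list. The sets are not alike, because the member medians also take in Spry1 and Etv4 where called, which are not among these genes. Of the 6 members called in all 4 libraries, 5 had their lowest rank in Shh-/- rep1, the exception being Spred2, and 79.7% of all genes called in all 4 libraries did the same.

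Sprouty proteins are feedback inhibitors of receptor tyrosine kinase signaling. Spry2 (ENSMUSG00000022114.5, chr14:105891947-105896819, minus strand) had the most regions of the members, 7 in its window. Its promoter region at chr14:105896723-105898188 was called in all 4 libraries, at 6.44% of the list in WT rep1, 17.5% in WT rep2, 71.3% in Shh-/- rep1 and 6.13% in Shh-/- rep2. The promoter peak thus ranked second among the members in every library except Shh-/- rep1, where Spred2 was second. A neighbouring region with its summit at -1.97 kb from the TSS (chr14:105898633-105899275) was called at 27.8% in WT rep1, 74.0% in WT rep2 and 52.7% in Shh-/- rep2 and was not called in Shh-/- rep1. An intergenic region at -24.2 kb (chr14:105920626-105921443) showed another pattern. It was called at 21.7% in WT rep1, 17.3% in Shh-/- rep1 and 11.1% in Shh-/- rep2, and not in WT rep2. In Shh-/- rep1 this region, at rank 965, stood above the gene's own promoter, at rank 3983, whereas in WT rep1 and Shh-/- rep2 the promoter was the higher. The other 4 regions were each in 1 list, 3 in WT rep1 (1 in exon 2 and 2 in intron 1 of Spry2) and 1 in WT rep2.

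Spry4 (ENSMUSG00000024427.7, chr18:38586247-38601415, minus strand) had 4 regions, 2 of them called in every library. The promoter region (chr18:38600676-38602727), shared with the start of the divergent gene AC133601.1, lay at 8.76% of the list in WT rep1, 53.9% in WT rep2, 55.5% in Shh-/- rep1 and 52.7% in Shh-/- rep2. WT rep1 stood apart and the other 3 libraries were close together. Its summits, the positions of highest signal in each peak, fell within 15 bp of each other, the narrowest range of the 9 regions called in all 4 libraries. The second region is intergenic, 17.1 kb downstream of the TSS and beyond the end of the gene (chr18:38584032-38584749), and was called at 29.9, 62.7, 97.9 and 23.3% of the lists in the same order. It was thus among the last peaks of Shh-/- rep1, whereas in Shh-/- rep2 it stood above the promoter, at rank 4299 against 9726. A further region, at -30.6 kb in an intron of AC133601.1, was called in WT rep1 at 35.1% and Shh-/- rep2 at 74.5%.

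Spry1 (ENSMUSG00000037211.12, chr3:37639947-37644598, plus strand) had 3 window peaks in WT rep1, 1 in WT rep2, 0 in Shh-/- rep1 and 1 in Shh-/- rep2. Its promoter region (chr3:37639754-37640908), which also covers the start of the overlapping gene Gm42922, was called at 35.1% in WT rep1, 46.6% in WT rep2 and 42.3% in Shh-/- rep2. Shh-/- rep1 had 0 peaks in the whole window of Spry1. The only other regions were 2 intergenic peaks of WT rep1, 34.9 and 47.3 kb downstream of the TSS, at 97.0 and 86.5% of its list. Spry1 was the single member without a window peak in all 4 libraries, so 7 of 8 had one, against 41.9% of all protein-coding genes.

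The Spred proteins are inhibitors of the RAS and ERK cascade. Spred2 (ENSMUSG00000045671.17, chr11:19924375-20024026, plus strand) had its best promoter region at chr11:19923958-19924679, with ranks at 6.69% in WT rep1, 31.1% in WT rep2, 20.8% in Shh-/- rep1 and 13.9% in Shh-/- rep2. This was the second best promoter of the members in Shh-/- rep1 and, of the 6 called everywhere, the 1 with its lowest rank in WT rep2. A second region in the promoter window, in intron 1 with its best summit 0.933 kb from the TSS (chr11:19924815-19926139), was called at 22.9% in WT rep1, 40.8% in WT rep2 and 83.0% in Shh-/- rep2 and not in Shh-/- rep1. A region at -4.09 kb from the TSS (chr11:19919494-19920603) was called in the same 3 libraries, at 32.3, 96.4 and 34.2%. The remaining 3 regions each had a peak in 1 library, in intron 1 of Spred2 or beyond its end. The window of Spred2 is the widest, 199652 bp, because the gene itself is long.

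Spred1 (ENSMUSG00000027351.14, chr2:117121374-117182279, plus strand) had 1 promoter region and little else. The region (chr2:117119623-117121514) was called at 17.4% in WT rep1, 40.8% in WT rep2, 80.7% in Shh-/- rep1 and 21.9% in Shh-/- rep2. Its peak was 1798 bp long in WT rep1 and 1678 bp in Shh-/- rep2 but 596 bp in WT rep2 and 421 bp in Shh-/- rep1, so the longer lists had the longer peaks. No library had a peak in the gene body away from the promoter, and 1 region beyond the gene, 89.3 kb from the TSS, was in WT rep1 alone.

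Dusp6 (ENSMUSG00000019960.8, chr10:99263231-99267489, plus strand) encodes the phosphatase MKP3, which inactivates ERK in the cytoplasm. It had peaks at 3 places in at least 3 libraries each, and window peak counts of 4 in WT rep1, 3 in WT rep2, 3 in Shh-/- rep1 and 6 in Shh-/- rep2. The promoter region (chr10:99261240-99264027) lay at 9.52, 21.7, 63.0 and 16.3% of the lists in that order. WT rep2 and Shh-/- rep2 split this region into 2 peaks, with the summit of the weaker peak at -1.13 kb from the TSS in the former and -1.46 kb in the latter, while WT rep1 had a single peak of 2457 bp over the same stretch. Shh-/- rep1 had a single peak of 575 bp with its summit 229 bp after the TSS, whereas the best summits of the other 3 libraries lay at -163 to -22 bp.

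The second Dusp6 region, centred 5.8 kb downstream of the TSS and past the end of the gene (chr10:99268577-99269619), overlaps the starts of the predicted genes Gm34921 and Gm48089. It was called at 22.9% in WT rep1, 53.9% in WT rep2, 48.6% in Shh-/- rep1 and 24.8% in Shh-/- rep2. The peak of WT rep2 was 243 bp long with its summit at the far edge of the region, which gave this region the widest range of summits, 573 bp, against a median of 126 bp over all 3562 regions called in all 4 libraries. Another region 36.0 kb downstream (chr10:99298667-99299565), at the promoter of B530045E10Rik, was called at 16.5% in WT rep1, 34.2% in Shh-/- rep1 and 8.71% in Shh-/- rep2 and was not called in WT rep2. In Shh-/- rep1 both of these regions, at ranks 2716 and 1911, stood above the Dusp6 promoter at rank 3520. In Shh-/- rep2 the region at 36.0 kb, at rank 1608, also stood above the promoter at rank 3014, and in WT rep1, at rank 6443, it stood below the promoter at rank 3719. One more, 22.8 kb downstream, was in WT rep1 and Shh-/- rep2.

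Etv5 and Etv4 are PEA3 family ETS factors that activate FGF target genes in limb mesenchyme. Etv5 (ENSMUSG00000013089.15, chr16:22381309-22439719, minus strand) had the best ranked promoter of the 8 genes in every library. Its promoter region (chr16:22439332-22440424) was at rank 926 of 39080 in WT rep1, 329 of 11973 in WT rep2, 440 of 5589 in Shh-/- rep1 and 508 of 18459 in Shh-/- rep2. As percents of the lists these are 2.37, 2.748, 7.87 and 2.752%. The summits fell within 53 bp of each other. A region in intron 1, 1.11 kb after the TSS, was called in WT rep1 and Shh-/- rep2, and one in intron 5 (chr16:22428967-22429516) in WT rep1 alone.

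Etv4 (ENSMUSG00000017724.14, chr11:101769742-101785371, minus strand) had a region outside its promoter that was called in all 4 libraries, while the promoter was not. Regions outside the promoter also stood above it in some libraries at Spry2, Spry4 and Dusp6. The promoter region (chr11:101784695-101785734) was called at 22.9% in WT rep1, 90.1% in Shh-/- rep1 and 30.1% in Shh-/- rep2 and not in WT rep2. A region in intron 8 (chr11:101772166-101772962, 12.6 kb from the TSS, exons counted on the longest transcript) was called in all 4 libraries, at 10.7, 46.6, 48.6 and 26.4%. In each of the 3 libraries that called both, the intron 8 peak ranked above the promoter peak. The window also held the promoter of Dhx8, an RNA helicase gene, called in WT rep1 at 10.3% and Shh-/- rep2 at 36.5%.

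**Figure D2:**
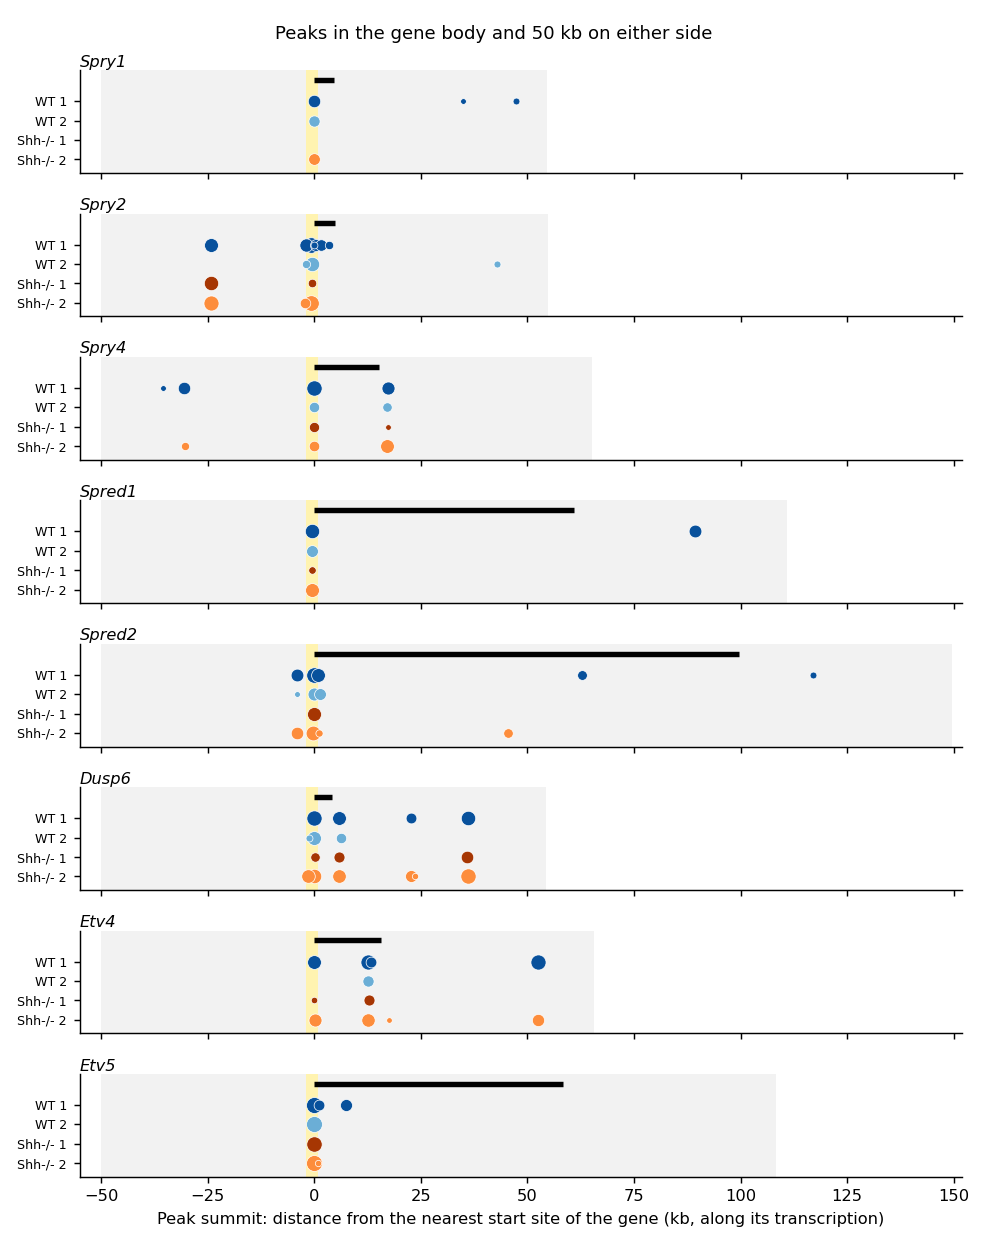
Summits of all peaks in the windows of the 8 genes, by distance from the nearest TSS of the gene (horizontal axis, kb, positive along transcription), with 1 row per library and larger points for higher ranks. The black bar is the gene body, grey the window and yellow the promoter. Peaks cluster at the start of every gene, and the points shared by libraries away from it lie at Spry2, Spry4, Spred2, Dusp6 and Etv4.

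Sequences are shown for the best ranked promoter (Etv5) and the one with most ETS cores in the 200 bases before its outermost TSS (Dusp6). They are also shown for 3 regions outside the members' own promoters that were called in at least 3 libraries. They are 200 bases of the GRCm38.p6 reference (C57BL/6J, not Swiss Webster), written 5′ to 3′ along the gene's transcription, and capitals mark GGAA, the core bound by ETS factors, or TTCC, the same core on the other strand. The promoters end at the base before the TSS (Etv5, chr16:22439720-22439919, minus strand, and Dusp6, chr10:99263031-99263230, plus strand), and the others are centred on the summit of the best ranked peak (Spry2, chr14:105920918-105921117, minus strand; Dusp6, chr10:99268904-99269103, plus strand; Etv4, chr11:101772577-101772776, minus strand).
Etv5 promoter: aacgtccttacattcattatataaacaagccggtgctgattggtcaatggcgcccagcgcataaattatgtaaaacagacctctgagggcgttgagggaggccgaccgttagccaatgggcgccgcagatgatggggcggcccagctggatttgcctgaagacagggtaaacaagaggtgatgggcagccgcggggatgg
Dusp6 promoter: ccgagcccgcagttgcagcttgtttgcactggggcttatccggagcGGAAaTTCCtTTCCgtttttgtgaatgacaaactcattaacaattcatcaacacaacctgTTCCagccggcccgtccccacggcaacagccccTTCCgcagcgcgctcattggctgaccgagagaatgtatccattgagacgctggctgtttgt
Spry2 upstream region: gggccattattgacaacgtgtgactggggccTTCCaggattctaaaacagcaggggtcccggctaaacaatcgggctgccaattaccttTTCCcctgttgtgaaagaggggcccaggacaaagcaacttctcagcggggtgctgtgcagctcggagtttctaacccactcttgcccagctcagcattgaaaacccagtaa
Dusp6 downstream region: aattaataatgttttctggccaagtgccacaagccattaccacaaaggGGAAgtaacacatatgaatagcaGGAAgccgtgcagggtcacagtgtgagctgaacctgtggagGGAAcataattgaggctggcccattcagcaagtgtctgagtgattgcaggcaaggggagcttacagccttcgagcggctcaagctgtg
Etv4 intron 8 region: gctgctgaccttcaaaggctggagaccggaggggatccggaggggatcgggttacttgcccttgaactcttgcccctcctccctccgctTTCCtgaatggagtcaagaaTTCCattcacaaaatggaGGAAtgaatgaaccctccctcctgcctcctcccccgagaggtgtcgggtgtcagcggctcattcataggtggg

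Cores were counted in the 200 bases before the outermost TSS of each gene (Spry1 has 3 TSS, and Spred1, Spred2, Etv4 and Etv5 have 2 each). The core occurred 5 times at Dusp6, 4 at Spred2, 3 each at Spry2, Spry4 and Etv4 and 0 times at Spry1, Spred1 and Etv5. Over 21911 protein-coding genes the median was 2, and 10.2% of genes had at least 5. Around the best summit of the promoter region, a stretch of the same length, the core occurred 6 times at Spred2, 4 at Spred1, 2 at Dusp6 and 0 times at Etv5. In promoters of the RefSeq annotation, which are longer stretches, it occurred 7 times at Spred2, 6 at Dusp6 and 5 at Spred1. At Etv5 it occurred 0 times at 1 RefSeq start and 6 times at another (chr16:22438319-22438618). Which promoter held the most cores thus depended on the stretch and the start taken. In the 200 bp around the best summit, 32 of 35 regions held the core (91.4%), against 87.8% of all regions. The longer ETS motif CCGGAA, each match of which also holds a core, was in 5 of 35 (14.3%) against 8.61%. TGGGTGG, part of the motif of the GLI proteins, was in 5 of 35 (14.3%) against 6.74%. Among regions called in all 4 libraries, CCGGAA was in 1 of 9 member regions, against 19.2% of all such regions. For TGGGTGG it was also 1 of 9, against 7.1%. These differences were not tested. The AP-1 motif TGANTCA and the CREB motif TGACGTCA were in 0 of 35, against 4.17 and 0.953%. All motifs were searched on both strands, and such matches are a description of letters, not of bound factors.

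To ask whether loss of SHH changed open chromatin near FGF response genes, peaks in the 8 windows were counted. There were 32 in WT rep1, 15 in WT rep2, 12 in Shh-/- rep1 and 24 in Shh-/- rep2, a mean of 23.5 ± 12.0 in WT and 18 ± 8.49 in Shh-/- (SD, n = 2). The genotypes overlapped, and the difference of 5.5 was smaller than either SD. Per 1000 peaks of the list the values were 0.819 (95% exact interval 0.560 to 1.16), 1.25 (0.701 to 2.07), 2.15 (1.11 to 3.75) and 1.3 (0.833 to 1.93) in the same order, so the longest list had the smallest share near these genes and the shortest list the largest, and the means were 1.04 ± 0.307 in WT and 1.72 ± 0.599 in Shh-/-. List size and genotype cannot be told apart with 2 libraries of each.

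**Figure D3:**
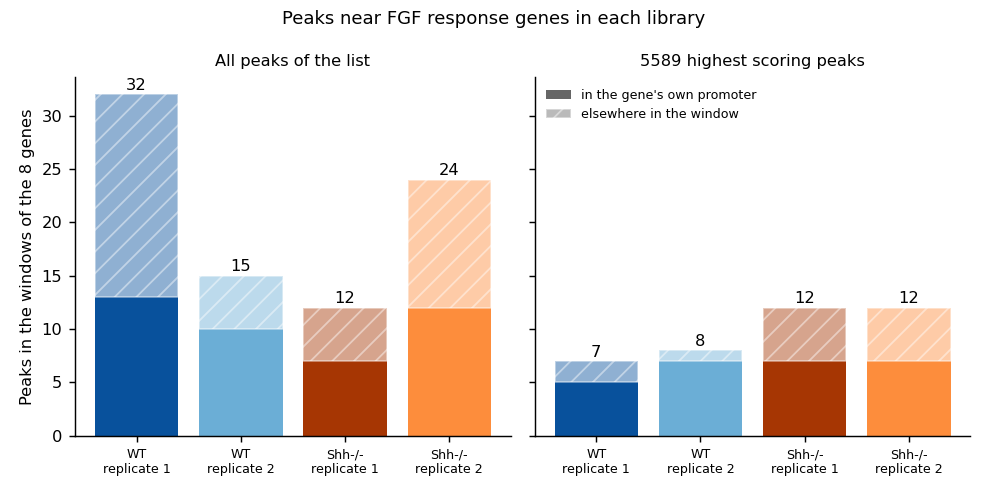
Peaks in the windows of the 8 genes in each library, with solid bars for peaks in the gene's own promoter and hatched bars for the rest of the window, for all peaks (left) and for the 5589 highest scoring peaks of each list (right). With all peaks the counts follow the length of the lists, and at equal list size they are 7 and 8 in WT and 12 and 12 in Shh-/-.

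No member passed a test of the genotype. For the number of window peaks, two-sided exact permutation tests gave p = 0.667 or 1 for each gene, and 1 after Benjamini-Hochberg adjustment over 17868 genes. With 2 libraries against 2 the smallest p possible is 0.333, so none could pass 0.05. In 0 of 8 genes did both WT libraries have more window peaks than both Shh-/- libraries (10% of the 17868 genes), and in 0 of 8 fewer (0.118%). In 6 of 8 (all but Dusp6 and Etv4) the counts followed the length of the lists from WT rep1 through Shh-/- rep2 and WT rep2 to Shh-/- rep1, ties included, as they did in 78.2% of the genes with a peak in the window. The largest difference was at Spry2, with 7 and 3 peaks in WT against 2 and 3 in Shh-/-, and Dusp6 went the other way with 4 and 3 against 3 and 6.

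For the rank of the best promoter peak, tested over 3524 genes called in all 4 libraries, both WT libraries were better placed than both Shh-/- libraries at 1 of 6 members, against 21.1% of these genes, and the reverse held at 0 of 6, against 0.0568%. The 1 gene was Etv5, with means of 2.56 ± 0.268% in WT and 5.31 ± 3.62% in Shh-/- (SD, n = 2), a difference of -2.75 percentage points (exact permutation test, p = 0.333, adjusted p = 0.862). The gap between WT rep2 and Shh-/- rep2 was only that between 2.748 and 2.752%, and by rank itself (926 and 329 against 440 and 508) the genotypes overlapped. At Spry2, Spry4, Spred1 and Dusp6 the WT means were also lower, with a difference of -26.7 percentage points at Spry2 (p = 1) and of -22.7, -22.2 and -24.0 at Spry4, Spred1 and Dusp6 (p = 0.667 each) by exact permutation tests, with adjusted p = 1 and 0.862. At Spred2 the difference was 1.57 (p = 1, exact permutation test). At Spry2, Spred1 and Dusp6 the values of Shh-/- rep2 lay within or close to those of WT and Shh-/- rep1 alone stood apart. Without Shh-/- rep1 the difference was 5.86 at Spry2, 7.24 at Spred1, -0.716 at Dusp6 and -0.193 at Etv5. At Spry4 WT rep1 stood apart, and without it the difference was -0.157. At equal list size, where only the 5589 best scored peaks of every list were ranked, the difference was -4.46 at Spry2, -1.93 at Dusp6, 2.75 at Etv5 and 23.4 at Spred2 (p = 0.333, exact permutation test).

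The regions were then sorted by the libraries that called them. Of the 35, 9 were called in all 4 libraries (25.7%), against 7.97% of all regions. In 3 libraries 7 were called (20%, against 13.6%), in 2 libraries 4 (11.4%, against 14.2%) and in 1 library 15 (42.9%, against 64.2%). WT rep1 alone called 11 (31.4%), against 51.6%. By position, 12 regions lay in a member's own promoter, 3 in the promoter of another gene, 3 in an exon, 7 in an intron and 10 between genes. Own promoters made up 6 of the 9 regions called everywhere, and the others were the Spry4 region beyond the gene, the Dusp6 region 5.8 kb downstream and intron 8 of Etv4. Of the 20 regions away from every promoter, 16 were called in WT rep1, 4 in WT rep2, 3 in Shh-/- rep1 and 9 in Shh-/- rep2. These counts follow the length of the lists, and the shares over all regions away from promoters were not computed.

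With all peaks, 0 of 35 regions were WT-specific, that is, called in both WT libraries and no Shh-/- library, against 2.09% of all regions, and 0 were Shh-specific, the reverse, against 0.396%. Of the 13 regions called in both WT libraries, Shh-/- rep2 called 13 (89.8% over all such regions) and Shh-/- rep1 called 9 (69.2%, 95% Wilson interval 42.4 to 87.3%, against 37.7%). Of the 12 called in both Shh-/- libraries, WT rep1 called 12 (96.2% over all such regions) and WT rep2 called 9 (75%, 46.8 to 91.1%, against 75%). The 3 that WT rep2 lacked were the Etv4 promoter, the Spry2 region at -24.2 kb and the Dusp6 region 36.0 kb downstream. The Wilson intervals take regions as independent, but several regions share a gene and each interval rests on the calls of the same library. They are therefore no test of the members against all regions, and the members were chosen with earlier results known. The differences from the shares over all regions were not tested.

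The picture changed when only the 5589 best scored peaks of every list were kept, as many as Shh-/- rep1 has. The windows then held 7 peaks in WT rep1, 8 in WT rep2, 12 in Shh-/- rep1 and 12 in Shh-/- rep2, so the difference turned to -4.5 (WT minus Shh-/-). Peaks in own promoters numbered 5, 7, 7 and 7, and peaks elsewhere, promoters of other genes included, 2, 1, 5 and 5. Of the 15 regions left, 5 were called in all 4 libraries (33.3%), against 28.6% of all 9282 regions at this size. Another 5 were Shh-specific (33.3%), against 3.28%, and 0 were WT-specific, against 3.7%. The 5 were the Spry2 region at -24.2 kb, the Spry4 region 17.1 kb downstream, the Dusp6 regions 5.8 and 36.0 kb downstream and the Etv4 promoter.

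**Figure D4:**
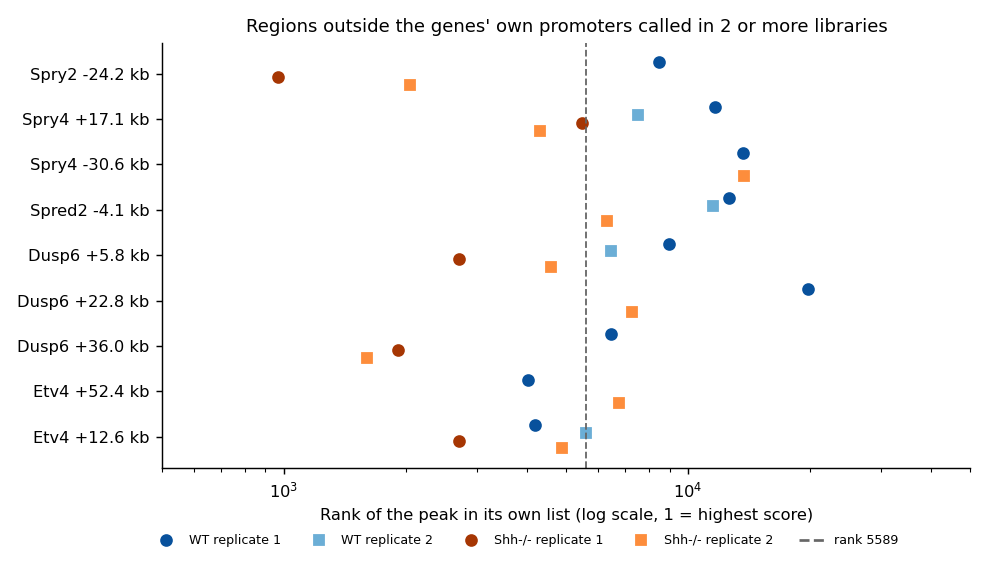
Rank in its own list (horizontal axis, log scale, 1 for the highest score) of each region outside the genes' own promoters that was called in 2 or more libraries, named by gene and distance from the TSS, with 1 point per library. The dashed line is rank 5589. At Spry4 +17.1 kb and Dusp6 +5.8 kb both Shh-/- points lie left of the line and both WT points right of it. At Spry2 -24.2 kb and Dusp6 +36.0 kb both Shh-/- points lie left and the only WT point, that of WT rep1, right. These regions are named because they were Shh-specific at this cut, which fixes the sides.

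WT rep1 called all 5 of these regions below that limit, and WT rep2 called 2 of them. At the Spry2 region the ranks were 8465 in WT rep1, 965 in Shh-/- rep1 and 2051 in Shh-/- rep2. At the Dusp6 region 36.0 kb downstream they were 6443, 1911 and 1608 in the same libraries. WT rep2 called neither of them, as at the Etv4 promoter, where the ranks were 8949, 5037 and 5562. The Dusp6 region 5.8 kb downstream was at ranks 8949 and 6456 in WT against 2716 and 4581 in Shh-/-, and the Spry4 region at 11667 and 7509 against 5469 and 4299. The choice of a fixed list size makes both Shh-/- ranks lie above every WT rank in these 5. As percents of the full lists the genotypes overlapped at both Dusp6 regions and at the Spry4 region. At the Spry2 region both Shh-/- libraries (17.3 and 11.1%) were ahead of WT rep1 (21.7%), and at the Etv4 promoter WT rep1 (22.9%) was ahead of both (90.1 and 30.1%).

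The regions named Shh-specific at this size differ from the others in ways that touch the whole lists. Of all 304 such regions 29.3% lay at promoters, against 90.1% of the 343 WT-specific ones, and of the 5 here 3 did. With peaks kept by a score of at least 50 in place of a fixed number, 0 of 24 regions were Shh-specific (0.887% of all regions) and 1 was WT-specific (1.07%), the intron 1 region of Spred2. The GC content of the 200 bp around the summit also moved with the calls. It was 47 to 53.5% in the 5 regions, while the median over all regions called was 56% in WT rep1, 63% in WT rep2, 58% in Shh-/- rep1 and 61% in Shh-/- rep2. Among the 20 member regions that WT rep1 and Shh-/- rep2 both called, the 13 that WT rep2 called had a median of 59.5% and the 7 that it did not call 53.5%. For Shh-/- rep1 the order was the reverse, 55.25% in the 12 called and 61.5% in the 8 not called. All regions that both called showed the same order. Their medians were 65.5% called and 58.5% not called for WT rep2, and 60 and 65% for Shh-/- rep1. The part of GC content, peak scoring and library quality in these ranks was not tested.

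Other genes of the pathway were set beside the members, from a list of 34 of which 33 had a match in the annotation. Their promoters were called in 33 of 33 cases in WT rep1, 26 in WT rep2, 16 in Shh-/- rep1 and 30 in Shh-/- rep2, and 15 (45.5%) were called in all 4 libraries, against the background of 16.1%. Of the other feedback genes 4 of 7 were called in all 4 (Spred3, Dusp4, Dusp5 and Dusp7), and of the other ETS and early response genes 6 of 10 (Etv1, Elk1, Erf, Fos, Egr1 and Myc). Of the receptors and adaptors it was 3 of 7 (Fgfr2, Grb2 and Gab1). Of the kinase cascade it was 2 of 9 (22.2%), with 9 called in WT rep1, 8 in WT rep2, 2 in Shh-/- rep1 and 9 in Shh-/- rep2. The difference between these groups was not tested.

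Single genes of this list ranked as high as the members. Egr1, an immediate early gene induced by ERK, lay at 2.51% in WT rep1, 4.64% in WT rep2, 34.2% in Shh-/- rep1 and 3.92% in Shh-/- rep2, close to Etv5 in every library but Shh-/- rep1. Dusp7, another ERK phosphatase gene, lay at 5.19, 15.7, 13.2 and 11.8%. The receptor gene Fgfr1 was called at 32.3, 74.0 and 67.6% and not in Shh-/- rep1. One gene of the 33 was called in both WT libraries and no Shh-/- library, Ier3, at 50.6 and 85.7% (background 1.53%), and 0 showed the reverse (0.00456%).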

How the data were processed

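Chromatin accessibility was measured in 2 WT and 2 Shh-/- libraries, assigned by genotype and number from the sample titles. According to the submitters' processing notes the authors used Bowtie2 2.2.5 and MACS2 2.1.0 with mm10 (GRCm38). The study's methods give a MACS2 window of 200 bp and a q-value of 0.05. Read filters and any shift of reads for the Tn5 cut were not given in the sources used here. Peaks were called per library. The deposited score of each peak (column 5) was used as a rank only, because its scale is not stated, and the deposited fold, p-value and q-value columns were 0 throughout and not used. The study's methods give 1 sequencing depth for ATAC-seq libraries in general. The depth each library reached is unknown from peak lists, and intervals cover counting error only. No peak ended beyond a chromosome of GRCm38.p6.

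Regions were peaks of any library joined where they shared 1 bp or more. They were annotated with the GENCODE M21 basic set, with windows of 50 kb and promoters of 2 kb before to 1 kb after a TSS. Peaks with tied scores share the lower rank, and at the limit of 5589 ties were ordered by position. Genotypes were compared per gene by exact permutation tests with Benjamini-Hochberg adjustment over all genes. Alternatives were equal list size, a score of at least 50, other windows and overlaps, a replicate block and leaving out each library. The limma comparison of signal made in the study needs reads and was not run. All 8 members were named, and other genes only where they hold a region in a window or belong to the pathway and marker lists. Single genes of the kinase cascade group of that pathway list are not reported here. The members and lists were chosen with earlier results of these data known. Scripts were tested on simulated data (Python 3.11.15, numpy 2.4.6, scipy 1.17.1, samtools 1.23.1, matplotlib 3.10.9).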

Additional observations from a re-analysis of the deposited data

How the results depend on the processing

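The excess of WT over Shh-/- window peaks, 5.5, became -4.5 at equal list size and ranged from -3 to 14 when single libraries were left out, and the difference per 1000 peaks from -1.11 to -0.264. Promoters called in all 4 libraries numbered 4 at equal list size and 4 with a score of at least 50, and 6 to 7 when libraries were left out. WT-specific regions numbered 0 with all peaks and 1 with a score of at least 50. When single libraries were left out they numbered 0 to 11 (11 without WT rep2, 4 without Shh-/- rep2 and 1 without WT rep1). The 11 are the regions that WT rep1 alone called with all peaks (31.4%), against 51.6% of all regions. Shh-specific regions numbered 0 with all peaks, 5 at equal list size and 0 to 3 when single libraries were left out (3 without WT rep1 and 3 without Shh-/- rep1). The 3 without Shh-/- rep1 are those that Shh-/- rep2 alone called with all peaks (8.57%), against 7.33% of all regions. The 4 without Shh-/- rep2 are those that all libraries but Shh-/- rep1 called with all peaks (11.4%), against 11.3% of all regions. The 1 without WT rep1 is the region that WT rep2 alone called (2.86%), against 4.28%. The 3 Shh-specific regions without WT rep1 are those that all libraries but WT rep2 called (8.57%), against 2.26%. Shares over all regions were not computed anew with a library left out. The changed counts of WT-specific and Shh-specific regions were 7 of the values for the summary results. The other 40 moved by less than 1 SD or by at most 1.5 times, and they include replicate block values, which repeat the main difference.

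For single genes, 93 values kept the direction, 11 were a difference of 0 and 14 turned. The 93 include the replicate block values, which repeat the main difference by construction. They also include the promoter window of 500 bp, which left each rank difference unchanged. The 93 are therefore no measure of stability. The difference in window peaks turned at equal list size at Spry2 (-1), Spry4 (-1) and Spred1 (-0.5), and with gene bodies alone at Etv4 (0.5). When single libraries were left out it ranged from -0.5 to 1.5 at Spry4, -2.5 to 0.5 at Dusp6, -2 to 1 at Etv4 and -0.5 to 1.5 at Etv5. The difference in promoter rank turned to 2.75 percentage points at Etv5 at equal list size and ranged from -59.3 to 5.86 at Spry2, -51.6 to 7.24 at Spred1 and -10.6 to 13.8 at Spred2 when single libraries were left out. Spry4 and Spred1 gave no promoter rank difference at equal list size, because their promoters were then not called in all 4 libraries. The causes were not tested.

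With the replicate number as a block, the difference in window peaks stayed 5.5 and that per 1000 peaks -0.688, and the smallest p possible was 0.5 in place of 0.333. No member passed 0.05 in either form. Over all 44692 regions, the difference in calls between rep1 and rep2 of WT was correlated with that of Shh-/- at 0.245. The labels give the numbers no shared litter or day, so the numbers were taken as names only.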
